A study of Mus musculus with 22 samples.

Results

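The genes described here make sterols and fatty acids, or control how much of them a cell makes. They were chosen by symbol from a list of 34 genes, of which 33 have a row in both deposited expression tables, out of 24819 genes in each table. Hmgcs1, the other gene on the list, was not analysed here. The 33 fall into 8 genes of SREBP regulation and sterol sensing, 17 genes of cholesterol synthesis and 8 genes of fatty acid synthesis, desaturation and elongation.

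The samples were 22 RNA libraries of E14, a mouse embryonic stem cell line kept on gelatin in medium with leukemia inhibitory factor, and all were taken 3 days after transfection of small interfering RNAs (siRNAs). Every library received siRNA: siNT alone, which serves as the control, siDux, siRpl14 or siRpl11 together with siNT, or a pair of targeting siRNAs without siNT, either siRpl14+siRpl11 or siRpl14+siDux. The ribosomal protein genes Rpl14 and Rpl11 belong to the large subunit, and Dux encodes a transcription factor of the early embryo. The labels leave the letters NT unexplained. Set 1 compared both ribosomal protein genes, with 2 siNT libraries, 2 siRpl14, 2 siRpl11 and 2 of the combination. Set 2, in the same table, crossed Rpl14 with Dux in 4 libraries, 1 for each of siNT and siRpl14, siDux and their combination. Set 3, the other table, repeated that cross with 2 libraries for every group and added a single siRpl11 and a single siRpl14+siRpl11 library. Whether replicates were separate cultures is not stated, and p-values therefore reflect only how far these libraries spread, which may be technical variation.

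Cells build cholesterol from acetyl-CoA through mevalonate, the isoprenoid diphosphates, squalene and lanosterol, and build long-chain fatty acids from the same acetyl-CoA. Both branches are switched on by the sterol regulatory element-binding proteins (SREBPs), membrane-bound transcription factors made from Srebf1 and Srebf2. When sterols are scarce, Scap escorts an SREBP to the Golgi, where a pair of proteases releases its active part; when sterols are plentiful, Insig proteins hold the complex in the endoplasmic reticulum. Textbook accounts assign sterol genes mainly to SREBP2 and fatty acid genes mainly to SREBP1, and Insig1 and Srebf2 are themselves SREBP targets.

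The start-site sequences of these genes show what the arms do and do not share in letters. RefSeq windows (build GRCm38.p6, from 250 bases before to 50 bases after a start) were found for 26 of the 33 genes, and none for Stard4, Fdps, Fdft1, Sqle, Scd1, Scd2 and Fads1. The letters CCAAT, read on either strand, occurred in 13 of 14 cholesterol synthesis genes with a window (92.9%), in 2 of 5 fatty acid genes (40%, Acly and Fasn) and in 4 of 7 regulators (57.1%), against 42.1% of 18119 genes. The core of the sterol regulatory element, TCACNCCA, was found in Srebf2 and Msmo1 (7.69% of the 26, against 4.69% of all genes). The E-box CACGTG was found in 5 of the 26 (19.2%, against 9.15%), and the GC box GGGCGG in 21 (80.8%, against 49.1%). By arm, the E-box was in 3 of 14 cholesterol synthesis genes, 0 of 5 fatty acid genes and 2 of 7 regulators. In the same order, the GC box was in 13 of 14 (92.9%), 2 of 5 (40%) and 6 of 7 (85.7%). All 4 motifs were searched on both strands; TCACNCCA can run into CCAAT, which it does in none of the excerpts shown, and CCAAT can run into its reverse, ATTGG. Shown are 60-base excerpts upstream of the start, 5′ to 3′ on the gene's strand, for genes that the results below turn on, with the sterol regulatory element core and CCAAT or ATTGG in capitals.
Srebf2, chr15:82147081-82147140 (+): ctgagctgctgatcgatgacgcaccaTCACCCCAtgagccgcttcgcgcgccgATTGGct
Msmo1, chr8:64733722-64733781 (-): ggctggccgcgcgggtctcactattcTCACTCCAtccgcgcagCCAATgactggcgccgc
Insig1, chr5:28071169-28071228 (+): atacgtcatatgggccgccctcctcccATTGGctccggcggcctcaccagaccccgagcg
Lss, chr10:76531516-76531575 (+): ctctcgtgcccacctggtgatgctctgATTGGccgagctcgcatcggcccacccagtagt
Cyp51, chr5:4104698-4104757 (-): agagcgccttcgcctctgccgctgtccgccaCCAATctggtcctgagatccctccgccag
Dhcr7, chr7:143830138-143830197 (+): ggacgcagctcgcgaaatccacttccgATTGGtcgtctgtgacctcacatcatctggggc
Idi1, chr13:8885546-8885605 (+): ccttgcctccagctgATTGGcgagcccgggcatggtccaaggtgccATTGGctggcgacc
Fasn, chr11:120824574-120824633 (-): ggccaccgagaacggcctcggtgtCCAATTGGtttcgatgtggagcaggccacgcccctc
Srebf2 and Msmo1 carry both motifs within 60 bases of each other. Idi1 carries 2 CCAAT matches in its excerpt, and Fasn carries a CCAAT joined to its reverse. Some genes have several windows, and a match in any of them counted, here and over all genes. Dhcr7 also has windows without a CCAAT match. A match is a description of letters and not a site of binding.

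Values are FPKM, fragments scaled by transcript length and library size, so levels can be set side by side between genes. Absolute depth is unknown. Between 30.1 and 32.1% of genes were at 0 in a library of sets 1 or 2, against 50.5 to 56.2% in set 3, and 10 of the 33 genes are listed at 0 in at least 1 library of set 3. Rpl14 stood at 893 and 402 FPKM with siRpl14 and 1550 and 1417 FPKM in siNT of set 1, Rpl11 at 260.1 and 113 FPKM with siRpl11 and 829 and 661 FPKM in siNT, and Dux at 0.0546 FPKM with siDux and 0.306 FPKM in siNT of set 2. The summed level of 7 stem cell markers (Pou5f1, Sox2, Nanog, Zfp42, Esrrb, Klf4 and Tdgf1, all above 0) was 3424 to 3446 FPKM in siNT of set 1, 2538 to 2708 with siRpl14, 2993 to 3064 with siRpl11 and 2435 to 2709 with both. Its members did not move alike. At a limma adjusted p under 0.05, Sox2 rose with siRpl14, siRpl11 and both (log2 fold changes 0.34, 0.48 and 0.31). Klf4 fell in each (-0.69, -1.01 and -1.30), and Pou5f1 passed in none (-0.16, 0.30 and 0.10). Nanog and Esrrb fell with siRpl11 and both, Tdgf1 with siRpl14 and both, and Zfp42 with both only. The 5 fibroblast markers summed to 15.4 to 15.6 FPKM in siNT, 4.93 to 8.95 with siRpl14, 4.96 to 5.90 with siRpl11 and 4.64 to 6.06 with both, nearly all of it Thy1, with Postn at 0 in all libraries of the set and Col3a1 at no more than 0.00697 FPKM. The 6 primitive endoderm markers summed to 3.16 to 4.93 and 4.42 to 8.62 FPKM, again in siNT and with siRpl14, and to 3.32 to 6.99 with siRpl11 and 3.43 to 7.84 with both. The 5 trophectoderm markers summed to 15.4 to 17.4 FPKM in siNT, 18.5 to 32.8 with siRpl14, but 7.62 to 9.15 with siRpl11 and 8.93 to 9.39 with both. In set 2 that sum was 11.2 FPKM in siNT and with siDux, 41.9 with siRpl14 and 81.2 with siRpl14+siDux, and in set 3 it was 2.77 to 6.46 in siNT, 5.60 to 6.88 with siRpl14 and 16.7 to 21.3 with siRpl14+siDux. The stem cell, fibroblast and trophectoderm sums of set 1 moved with the knockdowns, and their part in the results below was not tested. In bulk RNA, fewer cells of one kind and less RNA per cell cannot be told apart.

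Of the 33 genes in set 1, 16 fell and 2 rose with siRpl14, against 13.4% of 12129 tested genes called lower and 18.1% called higher (31.5% in either direction). With siRpl11, 23 fell and 2 rose, against 28.4% of all genes lower and 16% higher (44.3% in either direction). With both siRNAs, 23 fell and 1 rose, against 25% lower and 16.6% higher (41.6% in either direction). The share over all genes moved with the scaling of the libraries: with median-ratio rescaling, 19.9% of all genes were called lower and 25% higher with siRpl11, and 18 of the 33 fell and 2 rose. With both siRNAs it gave 19.5% lower and 22.9% higher over all genes, and 20 fell and 2 rose among the 33. Here and below, a gene is called where limma's adjusted p over all tested genes is under 0.05. All 33 genes passed the filter on low values in set 1. Their median log2 fold change was -0.48, -0.58 and -0.53 in the 3 comparisons, beside 0.035, -0.11 and -0.067 for all tested genes. Both libraries lay below both siNT libraries for 25 of the 33 genes with siRpl14 (32.9% of all genes), 27 with siRpl11 (46.2%) and 27 with both (43.3%). The 3 comparisons share their siNT libraries.

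**Figure D1:**
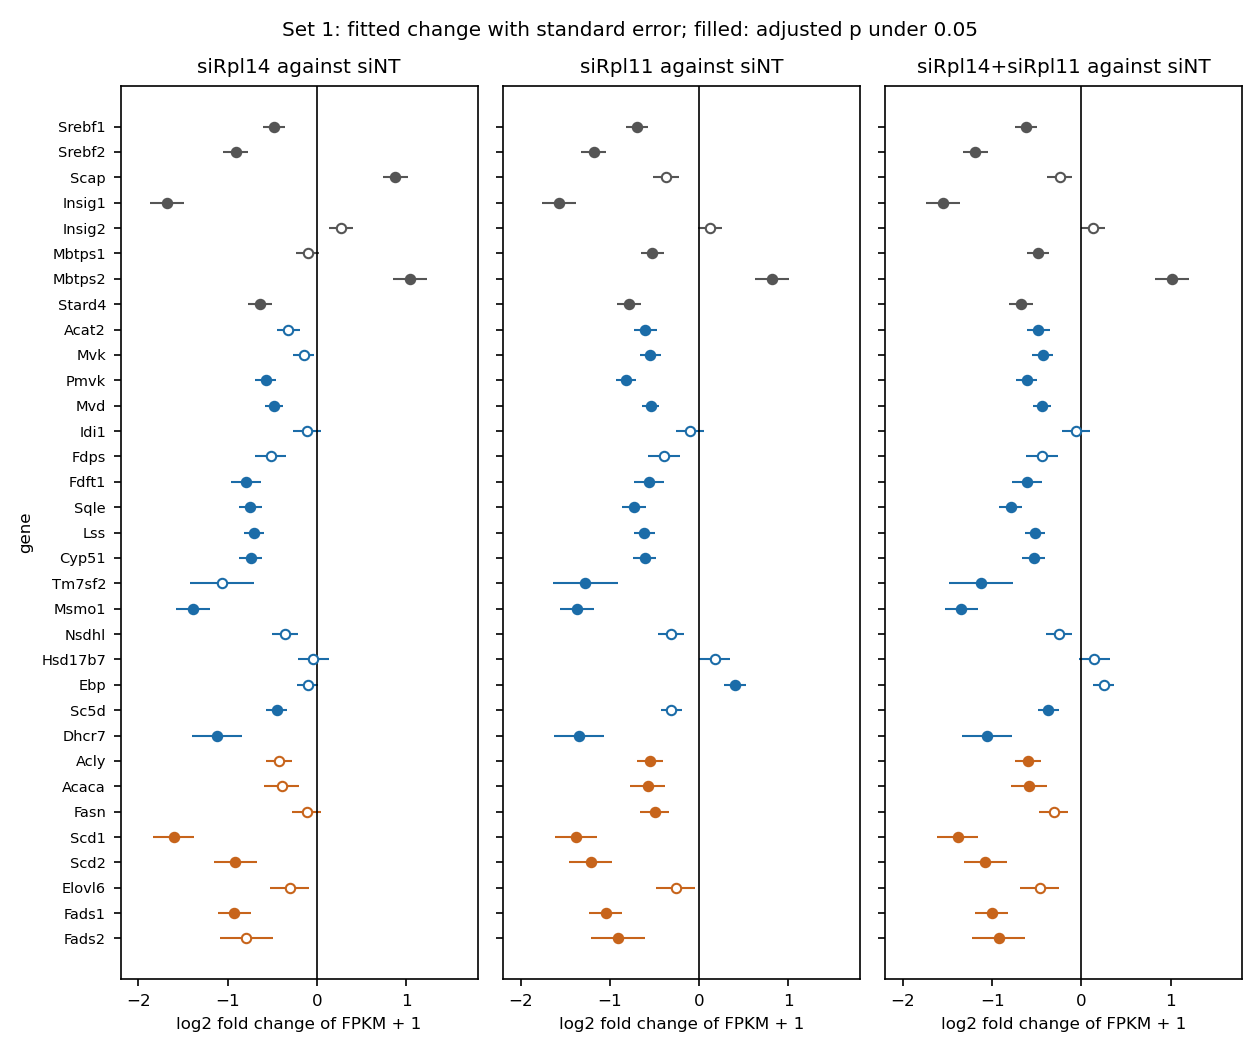
Fitted log2 fold change of FPKM + 1 (x axis) with its standard error for the 33 genes (y axis) in set 1, with siRpl14, siRpl11 or both against siNT (2 libraries per group); grey points are SREBP regulators, blue cholesterol synthesis genes, orange fatty acid genes, and filled points have an adjusted p under 0.05. Most filled points lie left of 0, and Mbtps2 lies right of 0 in all 3 panels.

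These counts leaned on single libraries, as did those over all genes. In each fit named next, 1 group was left with 1 library, and the share called over all genes fell as well. The fold changes of called genes kept their sign with any library left out. With siRpl14, that of Pmvk ran from -0.60 to -0.55 and that of Dhcr7 from -1.42 to -0.83. Without 1 siNT library the number called with siRpl14 went from 18 to 6 (without replicate 1) or 10 (without replicate 2), and to 7 without siRpl14 replicate 2; with siRpl11 it went from 25 to 15 without siNT replicate 2 and 13 without siRpl11 replicate 2; with both siRNAs it went from 24 to 10 without either siNT library and 7 without siRpl14+siRpl11 replicate 1. Calls that held in each of these fits numbered 6 with siRpl14 (Srebf2, Insig1, Sqle, Lss, Msmo1 and Scd1), 10 with siRpl11 (Srebf1, Srebf2, Insig1, Stard4, Pmvk, Mvd, Sqle, Msmo1, Scd1 and Fads1) and 6 with both (Srebf2, Insig1, Sqle, Msmo1, Scd1 and Fads1).

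The genes for the transcription factors themselves fell. Srebf2, which encodes SREBP2, stood in set 1 at 80.3 and 83.8 FPKM in siNT, 45.5 and 40.9 FPKM with siRpl14, 37.9 and 33.5 FPKM with siRpl11 and 30.9 and 40.7 FPKM with both siRNAs. Each of the 6 knockdown libraries was below both siNT libraries. The log2 fold change was -0.91 ± 0.14 (SE; limma, adjusted p = 0.0051) with siRpl14, -1.18 ± 0.14 (SE; limma, adjusted p = 0.00248) with siRpl11 and -1.19 ± 0.14 (SE; limma, adjusted p = 0.00267) with both. Srebf1, which encodes SREBP1, was less abundant, at 24.1 and 24.6 FPKM in siNT, 16.7 and 17.6 FPKM with siRpl14, 14.6 and 14.7 FPKM with siRpl11 and 13.8 and 17.3 FPKM with both siRNAs. All 6 knockdown libraries were below siNT here too, and its log2 fold change was -0.48 ± 0.12 (SE; limma, adjusted p = 0.0236) with siRpl14, -0.70 ± 0.12 (SE; limma, adjusted p = 0.00529) with siRpl11 and -0.62 ± 0.12 (SE; limma, adjusted p = 0.00826) with both. Leaving out 1 library raised the adjusted p of Srebf1 to as much as 0.103 without siNT replicate 1 for siRpl14, and to 0.0654 without siRpl14+siRpl11 replicate 1 for both siRNAs.

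Insig1 fell further than any other regulator in set 1. This gene, whose protein anchors the Scap-SREBP complex and whose transcription follows SREBP activity, was at 53.6 and 55.6 FPKM in siNT, 18.3 and 14.6 FPKM with siRpl14, 19.8 and 15.9 FPKM with siRpl11 and 14.9 and 21.6 FPKM with both siRNAs. All 6 knockdown libraries were under 22 FPKM and both siNT libraries over 53 FPKM, and the mean was 30.1% of siNT with siRpl14. Its log2 fold change was -1.68 ± 0.19 (SE; limma, adjusted p = 0.00188), -1.57 ± 0.19 (SE; limma, adjusted p = 0.00248) and -1.55 ± 0.19 (SE; limma, adjusted p = 0.00267) with siRpl14, siRpl11 and both. Insig2, the related anchor, did not pass the test, at 10.2 and 11.9 FPKM in siNT, 12.1 and 15.01 FPKM with siRpl14, 11.8 and 12.4 FPKM with siRpl11 and 11.7 and 12.6 FPKM with both siRNAs. Only its siRpl14 libraries were both above siNT. Its log2 fold changes were 0.27, 0.12 and 0.13, with adjusted p between 0.158 and 0.486 (limma).

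Scap was high only in the siRpl14 libraries of set 1. The gene for the escort protein was at 10.9 and 11.6 FPKM in siNT, 19.1 and 24.4 FPKM with siRpl14, 7.95 and 9.09 FPKM with siRpl11 and 9.76 and 8.98 FPKM with both siRNAs. The siRpl14 libraries were above every other library of the set, and the remaining knockdown libraries were below siNT. Scap rose with siRpl14, by 0.88 ± 0.14 (SE; limma, adjusted p = 0.00556), while the values for siRpl11, -0.37 ± 0.14 (adjusted p = 0.0642), and for both siRNAs, -0.24 ± 0.14 (adjusted p = 0.193), did not pass the test. It was the only one of the 33 genes called between siRpl14+siRpl11 and siRpl14, where it fell by 1.12 on the log2 scale (SE 0.14; limma, adjusted p = 0.00648), against 7.24% of all genes called, 6.61% lower and 0.627% higher. The rise with siRpl14 had an adjusted p of 0.0507 without siNT replicate 1, and the fall from siRpl14 to both siRNAs stayed called with any library left out. In the GENCODE annotation, 13.2% of the exon bases of Scap are overlapped by an antisense gene, 5830462I19Rik, and the sources used here do not state whether counting used strand.

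The protease genes split. Mbtps2, which encodes the second of the Golgi proteases that release SREBP, was at 4.29 and 5.81 FPKM in siNT, 9.87 and 13.04 FPKM with siRpl14, 10.5 and 8.71 FPKM with siRpl11 and 9.96 and 12.3 FPKM with both siRNAs. Every knockdown library was above both siNT libraries. It rose in each comparison, by 1.04 ± 0.19 (SE; limma, adjusted p = 0.00819) with siRpl14, 0.81 ± 0.19 (SE; limma, adjusted p = 0.0122) with siRpl11 and 1.01 ± 0.19 (SE; limma, adjusted p = 0.00703) with both. Without siNT replicate 1 the adjusted p was 0.0668, 0.0861 and 0.0553. Of the exon bases of Mbtps2, 28.4% are shared on the same strand with Yy2, so reads may be split between them, and Yy2 stood at 3.72 and 4.80 FPKM in siNT, 4.48 and 6.24 with siRpl14 and 5.75 and 7.81 with siRpl11. Mbtps1, which encodes the first protease, fell with siRpl11, with a log2 fold change of -0.52 ± 0.13 (SE; limma, adjusted p = 0.0138), and with both, with -0.49 ± 0.13 (SE; limma, adjusted p = 0.0189). With siRpl14 alone its log2 fold change was -0.10 ± 0.13 (adjusted p = 0.543). Each Mbtps1 call was lost in 3 of 8 fits with a library left out, with the highest adjusted p without siNT replicate 2, at 0.0656 and 0.0895.

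Stard4, whose protein carries sterol between membranes, was at 14.6 and 13.2 FPKM in siNT, 8.23 and 8.94 FPKM with siRpl14, 7.94 and 7.34 FPKM with siRpl11 and 7.48 and 9.24 FPKM with both siRNAs. All knockdown libraries lay below siNT. It fell, with log2 fold changes of -0.64 ± 0.13 (SE; limma, adjusted p = 0.0124) with siRpl14, -0.78 ± 0.13 (SE; limma, adjusted p = 0.00475) with siRpl11 and -0.68 ± 0.13 (SE; limma, adjusted p = 0.00817) with both, and the highest adjusted p with a library left out was 0.0862 without siNT replicate 1 for siRpl14 and 0.0662 without siRpl14+siRpl11 replicate 1 for both. Across the 8 regulators, beside the shares over all genes given above, 4 fell and 2 rose with siRpl14 (median -0.29), and 5 fell and 1 rose with siRpl11 (median -0.61) and with both (median -0.56). The share that rose with siRpl14, 2 of 8, is near the 18.1% of all genes called higher.

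**Figure D2:**
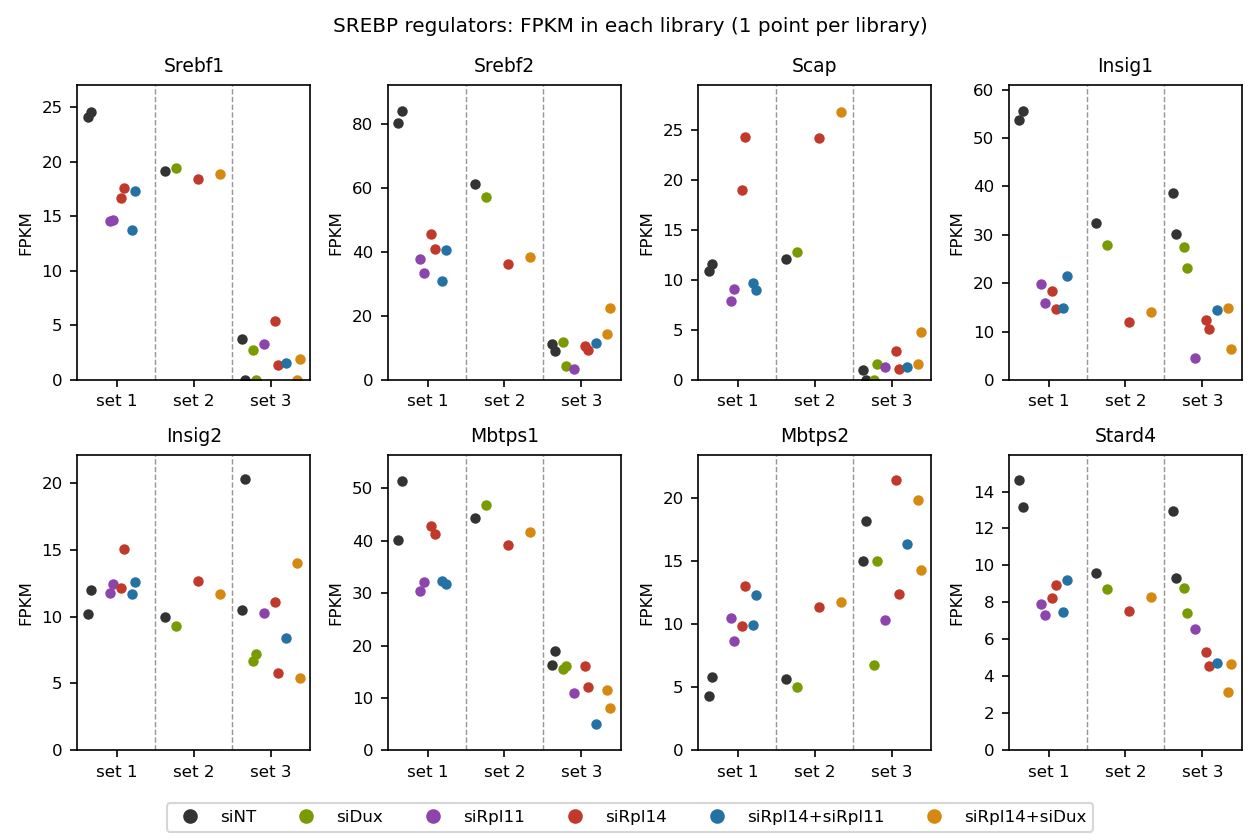
FPKM (y axis, from 0) of the 8 SREBP regulators in each of the 22 libraries, 1 point per library, coloured by siRNA and ordered by set along the x axis. In set 1 Insig1 and Srebf2 are lower in all knockdown libraries than in siNT, Mbtps2 is higher, and Scap is raised in the siRpl14 libraries only; set 3 is on another scale.

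The early steps run from acetyl-CoA to the isoprenoid diphosphates. Of the 6 genes measured there with siRpl14, Pmvk and Mvd fell; with siRpl11 or both siRNAs, Acat2, Mvk, Pmvk and Mvd fell. Pmvk, the second kinase of the mevalonate pathway, was at 26.4 and 25.96 FPKM in siNT, 17.6 and 16.98 FPKM with siRpl14, 15.7 and 13.2 FPKM with siRpl11 and 15.96 and 17.7 FPKM with both siRNAs. All 6 knockdown libraries were under 18 FPKM and both siNT libraries over 25 FPKM. It changed by -0.57 ± 0.12 (SE; limma, adjusted p = 0.0114), -0.82 ± 0.12 (SE; limma, adjusted p = 0.0031) and -0.61 ± 0.12 (SE; limma, adjusted p = 0.00734) with siRpl14, siRpl11 and both. Mvd, the decarboxylase that follows, changed by -0.48, -0.55 and -0.44. Mvk, the first kinase, had log2 fold changes of -0.15, -0.55 and -0.43. With a library left out, the adjusted p of Pmvk reached 0.0723 without siNT replicate 1 and 0.0606 without siRpl14+siRpl11 replicate 1 for siRpl14 and both, that of Mvd 0.0724 without siRpl14 replicate 2 and 0.0856 without siRpl14+siRpl11 replicate 1, and that of Mvk 0.0775 without siRpl11 replicate 2 and 0.152 without siRpl14+siRpl11 replicate 1 for siRpl11 and both.

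Idi1, which interconverts the 5-carbon building blocks, stood apart from its neighbours. It was at 5.60 and 7.77 FPKM in siNT, 5.80 and 6.33 FPKM with siRpl14, 6.47 and 5.71 FPKM with siRpl11 and 6.27 and 6.37 FPKM with both siRNAs. All knockdown values lay within the range of the siNT libraries, with log2 fold changes of -0.11 ± 0.16 (adjusted p = 0.614), -0.10 ± 0.16 (adjusted p = 0.611) and -0.056 ± 0.16 (adjusted p = 0.791) (limma). Some of its sequence is shared, since 17.7% of its 50-base stretches occur in other annotated genes. Fdps, which makes farnesyl diphosphate, had log2 fold changes of -0.52, -0.39 and -0.44 with adjusted p of 0.0575, 0.107 and 0.0791 (limma), and it shares 26.2% of its stretches with other genes. Acat2, the thiolase that starts the pathway, fell with siRpl11 (-0.61) and both (-0.48), and its value with siRpl14 was -0.32; its adjusted p reached 0.0687 without siRpl11 replicate 2 and 0.141 without siRpl14+siRpl11 replicate 1. It shares 39.1% of its stretches with Acat3, which was at 0.203 FPKM or less in sets 1 and 2 but is listed at 2096 to 3145 FPKM in set 3.

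From squalene to the last sterol, Fdft1, Sqle, Lss, Cyp51, Msmo1 and Dhcr7 fell in all 3 comparisons. Fdft1, which makes squalene, fell, with log2 fold changes of -0.79, -0.56 and -0.61 with siRpl14, siRpl11 and both. Its adjusted p reached 0.0862 without siNT replicate 1, 0.18 without siRpl11 replicate 2 and 0.144 without siRpl14+siRpl11 replicate 1. Of Fdft1, 18.3% of the exon bases are overlapped on the opposite strand by Ctsb, which was also lower, from 58.1 and 49.2 FPKM in siNT to 29.3 and 29.7 FPKM with siRpl14. Sqle, the epoxidase that follows and a rate-limiting enzyme, was at 35 and 45.04 FPKM in siNT, 23.1 and 23.5 FPKM with siRpl14, 22.6 and 24.6 FPKM with siRpl11 and 22.2 and 22.8 FPKM with both siRNAs. The 6 knockdown libraries lay between 22.2 and 24.6 FPKM, all below siNT. Its log2 fold change was -0.75 ± 0.13 (SE; limma, adjusted p = 0.00726), -0.73 ± 0.13 (SE; limma, adjusted p = 0.00545) and -0.79 ± 0.13 (SE; limma, adjusted p = 0.00505), and it stayed called with any library left out. Lss, which closes the sterol rings to form lanosterol, was at 19.5 and 21.9 FPKM in siNT, 11.8 and 12.8 FPKM with siRpl14, 13.9 and 12.5 FPKM with siRpl11 and 13.8 and 14.5 FPKM with both siRNAs. All 6 knockdown libraries were below siNT, and it fell, with log2 fold changes of -0.70 ± 0.11 (SE; limma, adjusted p = 0.00574), -0.61 ± 0.11 (SE; limma, adjusted p = 0.00609) and -0.52 ± 0.11 (SE; limma, adjusted p = 0.0114).

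Cyp51, the demethylase that acts on lanosterol, was at 18.04 and 17.2 FPKM in siNT, 10.8 and 9.51 FPKM with siRpl14, 11.5 and 10.9 FPKM with siRpl11 and 10.8 and 13.1 FPKM with both siRNAs. All knockdown libraries were below siNT. Its log2 fold change was -0.74 ± 0.13 (SE; limma, adjusted p = 0.00689), -0.61 ± 0.13 (SE; limma, adjusted p = 0.00845) and -0.53 ± 0.13 (SE; limma, adjusted p = 0.0145). With 1 library left out, its adjusted p reached 0.0559 without siNT replicate 1, 0.0597 without siRpl11 replicate 2 and 0.113 without siRpl14+siRpl11 replicate 1. Lss in turn reached 0.0517 without siRpl11 replicate 2 for siRpl11 and 0.0806 without siRpl14+siRpl11 replicate 1 for both.

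Msmo1 had the largest fold change of the cholesterol arm in each of the 3 comparisons. This gene for a methylsterol oxidase, one of those with TCACNCCA near its start, was at 65.6 and 59.1 FPKM in siNT, 23.2 and 23.1 FPKM with siRpl14, 26.4 and 20.8 FPKM with siRpl11 and 19.5 and 29.3 FPKM with both siRNAs. Its knockdown libraries reached at most 29.3 FPKM and its siNT libraries at least 59.1 FPKM. It fell, with log2 fold changes of -1.39 ± 0.19 (SE; limma, adjusted p = 0.00338), -1.37 ± 0.19 (SE; limma, adjusted p = 0.00292) and -1.34 ± 0.19 (SE; limma, adjusted p = 0.00345), and stayed called with any library left out. Dhcr7, the last reductase of the pathway, was at 35.98 and 35.7 FPKM in siNT, 19.7 and 12.8 FPKM with siRpl14, 17.6 and 10.2 FPKM with siRpl11 and 13.9 and 19.9 FPKM with both siRNAs. The knockdown replicates were uneven, but none reached the siNT level. It fell, with log2 fold changes of -1.12 ± 0.28 (SE; limma, adjusted p = 0.0212), -1.35 ± 0.28 (SE; limma, adjusted p = 0.00824) and -1.06 ± 0.28 (SE; limma, adjusted p = 0.0199), and its adjusted p reached 0.136 without siRpl14 replicate 2, 0.0577 without siNT replicate 1 and 0.119 without siRpl14+siRpl11 replicate 1.

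Of the other late genes, Sc5d and Tm7sf2 fell in 2 comparisons each. Sc5d, a sterol desaturase, fell with siRpl14 (-0.45) and both (-0.37), with -0.31 for siRpl11, and its adjusted p reached 0.127 without siRpl14 replicate 2 and 0.166 without siRpl14+siRpl11 replicate 1. Tm7sf2, a sterol reductase, fell with siRpl11 (-1.27) and both (-1.13), with -1.06 for siRpl14 (limma, adjusted p = 0.0552), and its adjusted p reached 0.136 without siRpl11 replicate 2 and 0.213 without siRpl14+siRpl11 replicate 1. It shares 9.87% of its stretches with Vps51. Nsdhl and Hsd17b7, which complete the removal of methyl groups, passed in no comparison, with log2 fold changes of -0.36 to -0.25 and -0.042 to 0.17. Ebp, the isomerase acting on the sterol ring, was at 19.4 and 19.1 FPKM in siNT, 19.1 and 16.6 FPKM with siRpl14, 27.4 and 24.2 FPKM with siRpl11 and 21.9 and 24.3 FPKM with both siRNAs. It was the only cholesterol arm gene to rise, with siRpl11 (with both siRNAs too under median-ratio rescaling, adjusted p = 0.0401), by 0.40 ± 0.12 (SE; limma, adjusted p = 0.0271); its values were -0.10 ± 0.12 (adjusted p = 0.516) for siRpl14 and 0.25 ± 0.12 (adjusted p = 0.12) for both. This rise was lost without any 1 of the siNT or siRpl11 libraries, at an adjusted p of up to 0.139.

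In the fatty acid arm, Scd1, Scd2 and Fads1 fell in all 3 comparisons of set 1, Acly, Acaca and Fads2 in 2, Fasn in 1 and Elovl6 in none. Scd1, the stearoyl-CoA desaturase that makes monounsaturated fatty acids, was at 33.5 and 43.9 FPKM in siNT, 13.2 and 10.8 FPKM with siRpl14, 15.7 and 12.8 FPKM with siRpl11 and 10.97 and 17.9 FPKM with both siRNAs. All knockdown libraries were under 18 FPKM and both siNT libraries over 33 FPKM. It fell, with log2 fold changes of -1.61 ± 0.23 (SE; limma, adjusted p = 0.004), -1.38 ± 0.23 (SE; limma, adjusted p = 0.00464) and -1.39 ± 0.23 (SE; limma, adjusted p = 0.00522) with siRpl14, siRpl11 and both, and stayed called with any library left out. Scd2, its paralog, had the highest mean of the 33 genes in siNT. It was at 169 and 213 FPKM in siNT, 113 and 89.4 FPKM with siRpl14, 95.04 and 69.2 FPKM with siRpl11 and 72.05 and 111 FPKM with both siRNAs. All 6 knockdown libraries were below siNT, and it fell, with log2 fold changes of -0.91 ± 0.24 (SE; limma, adjusted p = 0.0251), -1.22 ± 0.24 (SE; limma, adjusted p = 0.00693) and -1.08 ± 0.24 (SE; limma, adjusted p = 0.0114). Its adjusted p reached 0.148 without siRpl14 replicate 2, 0.051 without siNT replicate 2 and 0.0767 without siNT replicate 2. The genes share little sequence, 4.56% of the 50-base stretches of Scd1 and 3.97% of those of Scd2 occurring in other genes.

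Fads1 and Fads2 encode the desaturases of polyunsaturated fatty acids. Fads1 was at 28.4 and 33.9 FPKM in siNT, 18.04 and 13.9 FPKM with siRpl14, 16.1 and 13.1 FPKM with siRpl11 and 12.9 and 17.3 FPKM with both siRNAs. Each knockdown library was below siNT, and it fell, with log2 fold changes of -0.92 ± 0.19 (SE; limma, adjusted p = 0.0112), -1.05 ± 0.19 (SE; limma, adjusted p = 0.00532) and -1.004 ± 0.19 (SE; limma, adjusted p = 0.00681). Only the siRpl14 call was lost with a library left out, at an adjusted p of 0.0767 without siRpl14 replicate 2. Fads2 was at 24.9 and 33.3 FPKM in siNT, 19.4 and 13.5 FPKM with siRpl14, 18.9 and 11.7 FPKM with siRpl11 and 11.4 and 18.9 FPKM with both siRNAs. Its replicates were uneven but did not reach siNT. It fell with siRpl11, with a log2 fold change of -0.91 ± 0.30 (SE; limma, adjusted p = 0.0403), and both, with -0.93 ± 0.30 (SE; limma, adjusted p = 0.0395), with -0.79 ± 0.30 (adjusted p = 0.0769) for siRpl14, and its adjusted p reached 0.22 without siRpl11 replicate 2 and 0.224 without siRpl14+siRpl11 replicate 1.

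Acly, which makes cytosolic acetyl-CoA for both arms, was at 121 and 131 FPKM in siNT, 101 and 86.7 FPKM with siRpl14, 93.5 and 78.9 FPKM with siRpl11 and 73.7 and 92.99 FPKM with both siRNAs. All knockdown libraries were below siNT. It fell with siRpl11, with a log2 fold change of -0.55 ± 0.15 (SE; limma, adjusted p = 0.0196), and both, with -0.60 ± 0.15 (SE; limma, adjusted p = 0.0155), and its value for siRpl14 was -0.42 ± 0.15 (adjusted p = 0.059). Acaca, the carboxylase that commits acetyl-CoA to fatty acids, was at 10.4 and 14.6 FPKM in siNT, 10.3 and 8.08 FPKM with siRpl14, 8.71 and 7.23 FPKM with siRpl11 and 7.003 and 8.85 FPKM with both siRNAs. The highest siRpl14 value lay just under the lower siNT value. It fell with siRpl11, with a log2 fold change of -0.58 ± 0.20 (SE; limma, adjusted p = 0.0456), and both, with -0.59 ± 0.20 (SE; limma, adjusted p = 0.0452), with -0.40 ± 0.20 (adjusted p = 0.155) for siRpl14. It shares 30.4% of its stretches with other genes, Gm5182 among them. Fasn, which assembles palmitate, was at 46.4 and 64.8 FPKM in siNT, 52.9 and 48.2 FPKM with siRpl14, 40.4 and 36.8 FPKM with siRpl11 and 41.2 and 47.1 FPKM with both siRNAs. Its siRpl14 libraries lay inside the range of siNT. It fell with siRpl11, with a log2 fold change of -0.50 ± 0.16 (SE; limma, adjusted p = 0.0377), and its values were -0.12 ± 0.16 (adjusted p = 0.594) for siRpl14 and -0.31 ± 0.16 (adjusted p = 0.153) for both. Elovl6, which lengthens palmitate, was at 37.4 and 46.8 FPKM in siNT, 27.5 and 41.2 FPKM with siRpl14, 30.2 and 40.05 FPKM with siRpl11 and 32.8 and 27.4 FPKM with both siRNAs. Its siRpl14 and siRpl11 libraries overlapped siNT, and its log2 fold changes of -0.30, -0.26 and -0.47 did not pass.

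The calls of Acly, Acaca and Fasn did not hold with every library left out. With 1 library left out, the adjusted p for siRpl11 reached 0.125 without siRpl11 replicate 2 for Acly, 0.248 without siNT replicate 2 for Acaca and 0.197 without siNT replicate 2 for Fasn, and for both siRNAs 0.11 without siRpl14+siRpl11 replicate 1 for Acly and 0.242 without siNT replicate 2 for Acaca. Under median-ratio rescaling the siRpl11 calls of Acly (adjusted p = 0.0604), Acaca (0.0989), Fasn (0.103) and Fads2 (0.0691) were lost, as were those of Acaca (0.0697) and Fads2 (0.054) for both siRNAs (limma).

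**Figure D3:**
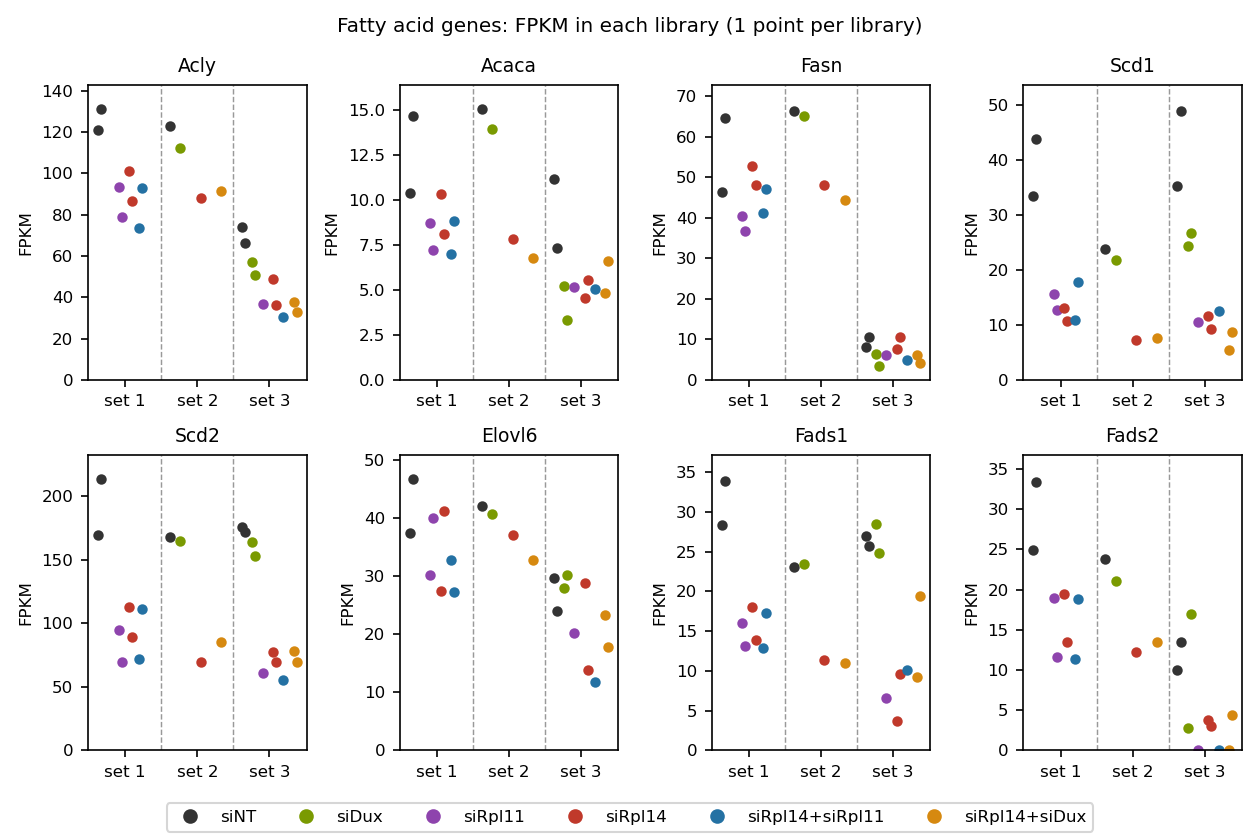
FPKM (y axis, from 0) of the 8 fatty acid genes in each of the 22 libraries, 1 point per library, coloured by siRNA and ordered by set along the x axis. In each set the libraries with siRpl14 or siRpl11 lie below siNT for Scd1, Scd2 and Fads1, while those with siDux alone lie closer to siNT; for Fasn and Elovl6 the groups overlap in part.

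Set against each other, the arms moved in the same direction in set 1. With siRpl14, 9 of 17 cholesterol genes and 3 of 8 fatty acid genes fell, against 13.4% of all genes called lower, with median log2 fold changes of -0.52 and -0.61. With siRpl11, 11 of 17 and 7 of 8 fell, against 28.4% of all genes, with medians of -0.56 and -0.74. The siRpl11 counts became 10 of 17 and 3 of 8 under median-ratio rescaling, 11 and 5 with quantile normalization, 11 and 4 with no filter, 8 and 2 without siNT replicate 2, 7 and 5 without siNT replicate 1, and 5 and 3 without siRpl11 replicate 2. With both siRNAs, 12 of 17 and 6 of 8 fell, against 25% of all genes, with medians of -0.48 and -0.76. These became 11 and 4 under median-ratio rescaling and with no filter, 4 and 3 without siNT replicate 1, 3 and 2 without siNT replicate 2, and 2 and 2 without siRpl14+siRpl11 replicate 1. The siRpl14 counts became 3 and 1 without siNT replicate 1 or siRpl14 replicate 2, and 4 and 1 without siNT replicate 2. With sets 1 and 2 fitted together, siRpl14 calls were gained for Acat2, Fdps and Tm7sf2 and for Acaca, Acly and Fads2, and none was lost. In each of the 3 comparisons, the arm with the larger share called thus changed with the setting. Of all genes, 19.9%, 19.8% and 19.5% were called lower with siRpl11 under median-ratio rescaling, quantile normalization and no filter. With both siRNAs, median-ratio rescaling and no filter gave 19.5% and 17% lower. The joint fit of sets 1 and 2 gave 21.8% lower with siRpl14. In the fits above with a library left out, the share called over all genes fell as well. The cholesterol median thus lay above the fatty acid median by 0.087, 0.18 and 0.28, differences that carry no test, since each is a single value over chosen genes. The siNT libraries alone differed from their mean by 0.048 in the median of the cholesterol arm and by 0.18 in that of the fatty acid arm. The latter was larger than the first of these differences and about as large as the second.

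By library, the fatty acid median was below the cholesterol median in all 6 knockdown libraries of set 1. With siRpl14 the medians relative to the siNT mean were -0.46 and -0.60 for cholesterol genes and -0.57 and -0.80 for fatty acid genes. With siRpl11 replicate 1 the arms were close, at -0.51 and -0.52, and in replicate 2 they were at -0.64 and -0.94. With both siRNAs they were at -0.58 and -0.98 in replicate 1 and at -0.40 and -0.59 in replicate 2. Within each arm the spread between genes was wider than the gap between arms: with siRpl14 the cholesterol genes ran from -1.39 (Msmo1) to -0.042 (Hsd17b7) and the fatty acid genes from -1.61 (Scd1) to -0.12 (Fasn).

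**Figure D4:**
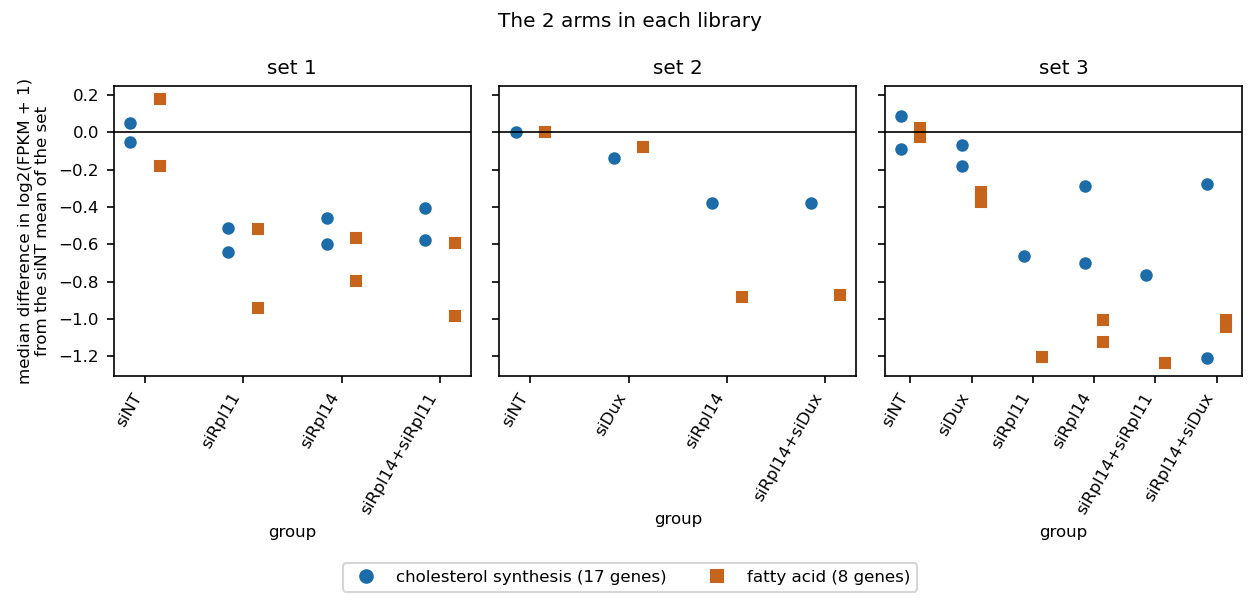
Median difference in log2(FPKM + 1) from the siNT mean of the same set (y axis) over the 17 cholesterol synthesis genes (blue circles) and the 8 fatty acid genes (orange squares), 1 point per library and arm, by siRNA (x axis) in sets 1, 2 and 3. Orange lies below blue in each library with siRpl14 or siRpl11 except siRpl14+siDux replicate 2 of set 3.

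Between siRpl14+siRpl11 and siRpl14 in set 1, none of the 17 cholesterol genes or 8 fatty acid genes was called. Of all genes, 7.24% were called, 6.61% lower and 0.627% higher. An unadjusted p under 0.05 was reached by 4 of the 33 genes (limma), and the share of all genes at that cutoff was not counted. The arm medians were 0.064 and -0.16. The interaction, which compares the change in the combined knockdown with the sum of the single changes, was called for 7 genes, all positive, against 1.83% of genes called in that direction, 2.65% in the other and 4.49% in both. The differences were 0.91 ± 0.20 for Srebf2, 1.70 ± 0.27 for Insig1, 0.78 ± 0.17 for Pmvk, 0.80 ± 0.16 for Lss, 0.82 ± 0.18 for Cyp51, 1.42 ± 0.27 for Msmo1 and 1.60 ± 0.33 for Scd1, each with its SE, and limma's adjusted p ran from 0.0259 to 0.0483. For Insig1, for example, the single changes of -1.68 and -1.57 stood beside a combined change of -1.55. All 7 of these interaction calls were lost in at least 1 fit with a library left out.

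Set 2, with 1 library per siRNA and no replicate check, gave siRpl14 values of the same direction in most genes. With siRpl14, 13 of the 33 genes were at least 1.5-fold lower than siNT and 2 at least 1.5-fold higher, against 13.2% and 14.9% of 11948 genes. The 2 higher genes were Scap and Mbtps2. The median differences were -0.38 in the cholesterol arm and -0.88 in the fatty acid arm, beside 0.011 over all genes. Scap was at 12.1 FPKM in the siNT library, 12.8 in siDux, 24.3 in siRpl14 and 26.9 in the siRpl14+siDux library. Mbtps2 was at 5.67 FPKM in the siNT library, 5.04 in siDux, 11.4 in siRpl14 and 11.8 in the siRpl14+siDux library. Scap thus lay above siNT by 0.94 and 1.08 on the log2 scale in the libraries with siRpl14.

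Among the regulators of set 2, Srebf2 was at 61.2 FPKM in the siNT library, 57.2 in siDux, 36.2 in siRpl14 and 38.3 in the siRpl14+siDux library. Insig1 was at 32.4 FPKM in the siNT library, 27.9 in siDux, 11.9 in siRpl14 and 14.04 in the siRpl14+siDux library. Both were lower in the libraries with siRpl14, as in set 1. Srebf1 was at 19.1 FPKM in the siNT library, 19.4 in siDux, 18.4 in siRpl14 and 18.9 in the siRpl14+siDux library, nearly level, unlike in set 1. Insig2 was at 9.98 FPKM in the siNT library, 9.30 in siDux, 12.7 in siRpl14 and 11.7 in the siRpl14+siDux library. Stard4 was at 9.62 FPKM in the siNT library, 8.74 in siDux, 7.56 in siRpl14 and 8.29 in the siRpl14+siDux library. For these 2 genes the differences stayed under 1.5-fold.

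In the cholesterol arm of set 2, Pmvk was at 18.1 FPKM in the siNT library, 17.8 in siDux, 13.6 in siRpl14 and 13.7 in the siRpl14+siDux library. Idi1 was at 8.34 FPKM in the siNT library, 7.30 in siDux, 5.19 in siRpl14 and 5.33 in the siRpl14+siDux library, lower in the libraries with siRpl14, which set 1 did not show. Sqle was at 32.95 FPKM in the siNT library, 27.02 in siDux, 20.9 in siRpl14 and 19.4 in the siRpl14+siDux library. Lss was at 14.2 FPKM in the siNT library, 13.2 in siDux, 11.2 in siRpl14 and 12.1 in the siRpl14+siDux library, a smaller difference than for Sqle. Cyp51 was at 13.2 FPKM in the siNT library, 11.7 in siDux, 7.99 in siRpl14 and 7.12 in the siRpl14+siDux library. Msmo1 was at 42.8 FPKM in the siNT library, 32.8 in siDux, 19.6 in siRpl14 and 20.3 in the siRpl14+siDux library, low in both libraries with siRpl14. Dhcr7 was at 26.3 FPKM in the siNT library, 22.97 in siDux, 12.9 in siRpl14 and 12.3 in the siRpl14+siDux library. Ebp was at 17.99 FPKM in the siNT library, 18.9 in siDux, 15.8 in siRpl14 and 16.1 in the siRpl14+siDux library, with no 1.5-fold difference.

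In the fatty acid arm of set 2, Scd1 was at 23.9 FPKM in the siNT library, 21.8 in siDux, 7.24 in siRpl14 and 7.63 in the siRpl14+siDux library. Scd2 was at 168 FPKM in the siNT library, 165 in siDux, 69.8 in siRpl14 and 85.2 in the siRpl14+siDux library. The libraries with siRpl14 were well below the others for both desaturases. Fads1 was at 23.1 FPKM in the siNT library, 23.5 in siDux, 11.4 in siRpl14 and 11.02 in the siRpl14+siDux library. Fads2 was at 23.8 FPKM in the siNT library, 21.1 in siDux, 12.3 in siRpl14 and 13.5 in the siRpl14+siDux library, again lower with siRpl14. Acly was at 123 FPKM in the siNT library, 112 in siDux, 88.1 in siRpl14 and 91.4 in the siRpl14+siDux library. Acaca was at 15.04 FPKM in the siNT library, 13.96 in siDux, 7.82 in siRpl14 and 6.78 in the siRpl14+siDux library, also lower with siRpl14. Fasn was at 66.3 FPKM in the siNT library, 65.3 in siDux, 48.1 in siRpl14 and 44.4 in the siRpl14+siDux library. Elovl6 was at 42.2 FPKM in the siNT library, 40.7 in siDux, 37.1 in siRpl14 and 32.9 in the siRpl14+siDux library, where the libraries with siRpl14 were nearer to siNT than for the other 7 genes.

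With siDux alone in set 2, none of the 33 genes was 1.5-fold lower or higher, against 0.544% and 0.444% of all genes. With siRpl14+siDux, 12 were lower and 2 higher, against 13.1% and 16.1%, and against siRpl14 alone none passed 1.5-fold, against 0.954% and 1.31%. The siRpl14+siDux medians were -0.38 in the cholesterol arm and -0.87 in the fatty acid arm, within 0.02 of those with siRpl14 alone.

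**Figure D5:**
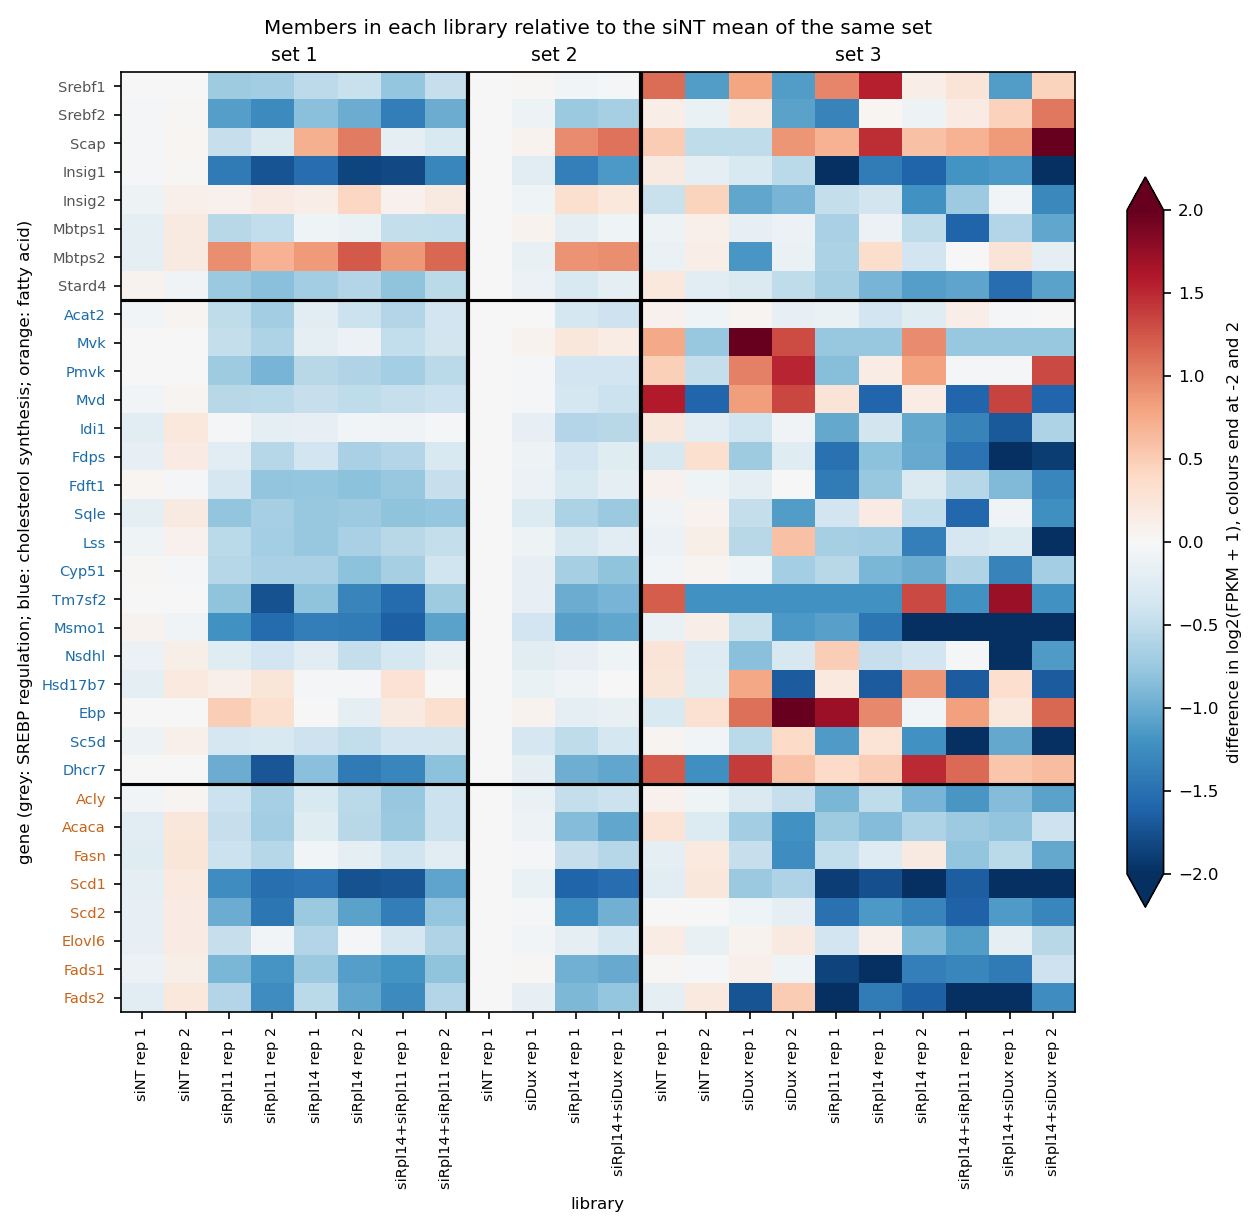
Difference in log2(FPKM + 1) from the siNT mean of the same set for each of the 33 genes (rows) in each of the 22 libraries (columns), blue where lower and red where higher, with colours ending at -2 and 2. Insig1, Msmo1, Scd1, Scd2 and Fads1 are blue in the libraries with siRpl14 or siRpl11 of all sets, Mbtps2 is red in those of sets 1 and 2, and genes listed at 0 make set 3 uneven.

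In set 3, Scd1 and Scd2 alone passed the test. Among 13189 tested genes, including all 33, Scd2 was the only one of the 33 called with siRpl14 (0.129% of genes called lower, 0.531% higher and 0.66% in either direction), and Scd1 and Scd2 with siRpl14+siDux (0.311% lower, 0.713% higher and 1.02% in either direction). An unadjusted p under 0.05 was reached by 8 and 14 of the 33 genes (limma). Both libraries lay below both siNT libraries for 17 genes with siRpl14 (22.4% of all genes) and 20 with siRpl14+siDux (23.6%), and for 14 with siDux alone (16%).

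Scd2 in set 3 was at 175 and 172 FPKM in siNT, 164 and 153 with siDux, 77.7 and 69.2 with siRpl14, 78.3 and 69.9 with siRpl14+siDux, 60.95 in the siRpl11 library and 55.7 in the siRpl14+siRpl11 library. The siNT and siDux libraries were all over 150 FPKM and every library with siRpl14 or siRpl11 was under 79 FPKM. Its log2 fold change was -1.23 ± 0.17 (SE; limma, adjusted p = 0.0307) with siRpl14 and -1.22 ± 0.17 (SE; limma, adjusted p = 0.0199) with siRpl14+siDux. Scd1 was at 35.3 and 49.03 FPKM in siNT, 24.4 and 26.7 with siDux, 11.6 and 9.30 with siRpl14, 5.44 and 8.72 with siRpl14+siDux, 10.5 in the siRpl11 library and 12.6 in the siRpl14+siRpl11 library. Its siNT libraries were highest and its siDux libraries between those and the rest. It fell, with log2 fold changes of -2.43 ± 0.34 (SE; limma, adjusted p = 0.0199) with siRpl14+siDux, with -1.90 ± 0.34 (adjusted p = 0.0634) for siRpl14. With a library left out, the adjusted p reached 0.188 without siRpl14 replicate 2 for Scd2 with siRpl14, and 0.12 without siRpl14+siDux replicate 2 for Scd2 and 0.153 without siNT replicate 2 for Scd1 with siRpl14+siDux.

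The other fatty acid genes of set 3 did not pass. Fads1 was at 26.9 and 25.8 FPKM in siNT, 28.4 and 24.8 with siDux, 3.73 and 9.56 with siRpl14, 9.21 and 19.4 with siRpl14+siDux, 6.58 in the siRpl11 library and 10.1 in the siRpl14+siRpl11 library. Fads2 was at 9.996 and 13.6 FPKM in siNT, 2.84 and 16.9 with siDux, 3.82 and 3.10 with siRpl14, 0 and 4.37 with siRpl14+siDux, 0 in the siRpl11 library and 0 in the siRpl14+siRpl11 library. For Fads1 each library with siRpl14 or siRpl11 was below siNT, and Fads2 is listed at 0 in 3 of them. Acly was at 73.9 and 66.1 FPKM in siNT, 57.2 and 50.6 with siDux, 48.9 and 36.01 with siRpl14, 37.7 and 32.7 with siRpl14+siDux, 36.6 in the siRpl11 library and 30.6 in the siRpl14+siRpl11 library. Acaca was at 11.2 and 7.35 FPKM in siNT, 5.22 and 3.35 with siDux, 4.55 and 5.58 with siRpl14, 4.83 and 6.58 with siRpl14+siDux, 5.16 in the siRpl11 library and 5.06 in the siRpl14+siRpl11 library. All libraries other than siNT were below siNT for Acly and Acaca, those with siDux alone included. Fasn was at 8.01 and 10.7 FPKM in siNT, 6.43 and 3.36 with siDux, 7.60 and 10.6 with siRpl14, 6.06 and 4.07 with siRpl14+siDux, 6.26 in the siRpl11 library and 4.93 in the siRpl14+siRpl11 library. Elovl6 was at 29.8 and 24.1 FPKM in siNT, 28.1 and 30.3 with siDux, 28.8 and 13.9 with siRpl14, 23.4 and 17.9 with siRpl14+siDux, 20.2 in the siRpl11 library and 11.8 in the siRpl14+siRpl11 library. For both genes the siRpl14 libraries overlapped siNT.

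Among the regulators of set 3, Insig1 was at 38.6 and 30.1 FPKM in siNT, 27.5 and 23.1 with siDux, 12.4 and 10.5 with siRpl14, 14.9 and 6.39 with siRpl14+siDux, 4.63 in the siRpl11 library and 14.4 in the siRpl14+siRpl11 library. The libraries with siRpl14 or siRpl11 all lay under 15 FPKM, below the siDux and siNT libraries, and the log2 fold change with siRpl14 was -1.50 ± 0.40 (adjusted p = 0.199). Srebf2 was at 11.3 and 9.16 FPKM in siNT, 11.8 and 4.32 with siDux, 10.6 and 9.42 with siRpl14, 14.4 and 22.4 with siRpl14+siDux, 3.43 in the siRpl11 library and 11.5 in the siRpl14+siRpl11 library. Unlike in sets 1 and 2, the siRpl14 libraries overlapped siNT and both siRpl14+siDux libraries were above siNT, with a log2 fold change of 0.76 ± 0.48 (adjusted p = 0.534). Srebf1 was at 3.72 and 0 FPKM in siNT, 2.75 and 0 with siDux, 5.38 and 1.40 with siRpl14, 0 and 1.95 with siRpl14+siDux, 3.26 in the siRpl11 library and 1.59 in the siRpl14+siRpl11 library. Scap was at 1.004 and 0 FPKM in siNT, 0 and 1.62 with siDux, 2.92 and 1.14 with siRpl14, 1.57 and 4.78 with siRpl14+siDux, 1.30 in the siRpl11 library and 1.28 in the siRpl14+siRpl11 library. Both genes are near the floor of this table, and 0 stands among their siNT values. Insig2 was at 10.5 and 20.3 FPKM in siNT, 6.64 and 7.21 with siDux, 11.1 and 5.77 with siRpl14, 14.02 and 5.41 with siRpl14+siDux, 10.3 in the siRpl11 library and 8.41 in the siRpl14+siRpl11 library. Mbtps2 was at 15.04 and 18.2 FPKM in siNT, 6.79 and 15.03 with siDux, 21.4 and 12.4 with siRpl14, 19.9 and 14.3 with siRpl14+siDux, 10.3 in the siRpl11 library and 16.4 in the siRpl14+siRpl11 library. Neither separated siRpl14 from siNT, so the rise of Mbtps2 in set 1 was not seen here. Stard4 was at 12.9 and 9.30 FPKM in siNT, 8.78 and 7.42 with siDux, 5.31 and 4.55 with siRpl14, 3.17 and 4.70 with siRpl14+siDux, 6.56 in the siRpl11 library and 4.74 in the siRpl14+siRpl11 library, with all other libraries below siNT and a log2 fold change with siRpl14 of -1.02 ± 0.43 (adjusted p = 0.385).

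In the cholesterol arm of set 3, Msmo1 was at 53.8 and 65.3 FPKM in siNT, 43.5 and 26.2 with siDux, 21.2 and 7.74 with siRpl14, 12.3 and 3.53 with siRpl14+siDux, 27.5 in the siRpl11 library and 11.1 in the siRpl14+siRpl11 library. Every other library was below siNT, and the log2 fold change was -2.11 ± 0.61 (adjusted p = 0.223) with siRpl14 and -2.96 ± 0.61 (adjusted p = 0.0833) with siRpl14+siDux. Cyp51 was at 20.2 and 21.8 FPKM in siNT, 19.8 and 12.8 with siDux, 10.7 and 10.01 with siRpl14, 7.70 and 12.7 with siRpl14+siDux, 14.1 in the siRpl11 library and 13.4 in the siRpl14+siRpl11 library. Idi1 was at 14.5 and 10.4 FPKM in siNT, 9.14 and 11.7 with siDux, 9.36 and 5.53 with siRpl14, 3.17 and 7.64 with siRpl14+siDux, 5.52 in the siRpl11 library and 4.30 in the siRpl14+siRpl11 library. For both genes the libraries with siRpl14 or siRpl11 lay below siNT. Sqle was at 39.2 and 43.6 FPKM in siNT, 29.5 and 18.6 with siDux, 46.4 and 29.1 with siRpl14, 39.1 and 17.1 with siRpl14+siDux, 31.3 in the siRpl11 library and 13.2 in the siRpl14+siRpl11 library. Lss was at 7.93 and 9.54 FPKM in siNT, 5.63 and 13.6 with siDux, 4.97 and 2.75 with siRpl14, 6.996 and 0.957 with siRpl14+siDux, 5.13 in the siRpl11 library and 6.68 in the siRpl14+siRpl11 library. Sqle with siRpl14 overlapped siNT, and Lss did not. Pmvk was at 7.87 and 3.60 FPKM in siNT, 11.8 and 17.4 with siDux, 6.08 and 10.2 with siRpl14, 5.29 and 14.9 with siRpl14+siDux, 2.549 in the siRpl11 library and 5.26 in the siRpl14+siRpl11 library. Ebp was at 1.96 and 3.54 FPKM in siNT, 6.87 and 13.6 with siDux, 6.12 and 2.54 with siRpl14, 3.26 and 7.15 with siRpl14+siDux, 10.97 in the siRpl11 library and 5.49 in the siRpl14+siRpl11 library. Dhcr7 was at 4.45 and 0 FPKM in siNT, 5.14 and 2.46 with siDux, 2.28 and 5.58 with siRpl14, 2.44 and 2.57 with siRpl14+siDux, 2.04 in the siRpl11 library and 4.14 in the siRpl14+siRpl11 library. These 3 genes gave no separation of siRpl14 from siNT.

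In set 3 the cholesterol median lay above the fatty acid median by 0.57 with siRpl14 (-0.42 and -0.99) and by 0.18 with siRpl14+siDux (-0.76 and -0.95). By library, the fatty acid median was -1.01 and -1.13 with siRpl14 and -1.01 and -1.05 with siRpl14+siDux, while the cholesterol median was -0.70 and -0.29, then -0.28 and -1.21. The single siRpl11 library had 20 genes at least 1.5-fold lower and 3 higher, against 32.1% and 18.5% of 13497 genes, and the single siRpl14+siRpl11 library 22 and 3, against 32% and 19.2%. Their medians were -0.66 and -0.76 for cholesterol genes and -1.21 and -1.24 for fatty acid genes. Zeros in set 3 fell mainly on cholesterol genes. Tm7sf2 is listed at 0 in 7 of the 10 libraries, Mvk in 6, and Mvd and Hsd17b7 in 4 each. Among the fatty acid genes only Fads2 is listed at 0, in 3. The cholesterol medians of -0.76 and -1.21 equal the values of Mvk and Tm7sf2 in the single siRpl11 library. The cholesterol medians of set 3 thus rest in part on genes listed at 0. The siRpl14+siDux gap turned sign, to -0.14 with a pseudocount of 0.1, to -0.18 among genes with a mean of at least 5 FPKM, to -0.17 without siNT replicate 2 and to -0.17 without siRpl14+siDux replicate 1.

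Treatment with siDux alone called none of the 33 genes in set 3 (limma), against 0.00758% of all genes called. Of the 33, 1 had an unadjusted p under 0.05. Dux itself did not pass the filter on low values in set 3, so its depletion there was not tested. The arm medians with siDux were -0.085 for cholesterol and -0.49 for fatty acid genes, beside 0 for all genes. By library the fatty acid median was -0.38 and -0.32 in set 3 and -0.076 in set 2. Adding siDux to siRpl14 called none of the 33, against 0.0152% of all genes called, and 2 of the 33 had an unadjusted p under 0.05 (limma). The siRpl14 by siDux interaction called none, against 0.0152% of all genes called, and 0 of the 33 had an unadjusted p under 0.05 (limma). The share of all genes at an unadjusted p under 0.05 was not counted for these comparisons.

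Genes of related pathways were counted the same way in set 1, and none was called in set 3. Of 8 genes of sterol transport, uptake and esterification, 5 fell with siRpl14, 7 with siRpl11 and 4 with both, beside 13.4%, 28.4% and 25% of all genes called lower. Scarb1, the lipoprotein receptor for cholesterol esters, changed by -1.09 ± 0.19, -1.41 ± 0.19 and -1.16 ± 0.19 (SE), and Vldlr, a lipoprotein receptor gene, changed by -1.02 ± 0.18 with siRpl14 and -0.94 ± 0.18 with both. Lrp8, of the same receptor family, changed by -1.07 ± 0.16 with siRpl11. Npc2, a lysosomal sterol carrier, changed by -0.99 ± 0.16 with both. Of 5 tested genes of the LXR pathway, which exports sterol when it is plentiful, none was called with siRpl14, 2 fell with siRpl11 and 3 with both, beside the same shares. Abcg1, a sterol exporter, changed by -1.55 ± 0.36 and -1.56 ± 0.36 in the latter comparisons, Mylip by -0.81 ± 0.13 with siRpl11, and Abca1 by -1.05 ± 0.30 with both.

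Of 12 genes supplying, elongating or activating fatty acids, 3 fell with siRpl14, 6 with siRpl11 and 3 with both, and none rose. The shares of all genes called lower were 13.4%, 28.4% and 25%. With both siRNAs, 3 of 12 equals the 25% of all genes. Acsl3, an acyl-CoA synthetase, changed by -0.85 ± 0.17, -0.99 ± 0.17 and -0.97 ± 0.17. Elovl5, an elongase, changed by -0.50 ± 0.11 with siRpl14, and Acss2, which makes acetyl-CoA from acetate, by -1.02 ± 0.23 and -0.81 ± 0.23 with siRpl11 and both. Of 13 genes that break fatty acids down, 1 fell and 1 rose with siRpl14, 6 fell with siRpl11 and 4 with both, of which the siRpl14 and combined counts are near or below the 13.4% and 25% of all genes. Cpt1a, the gate to mitochondrial oxidation, changed by -0.88 ± 0.12, -1.63 ± 0.12 and -1.38 ± 0.12, and Etfdh by 0.71 ± 0.19 with siRpl14. Acadvl, a mitochondrial dehydrogenase gene, changed by -0.66 ± 0.13 with siRpl11 and -0.62 ± 0.13 with both. Of 11 genes of the isoprenoid side branches, 2 rose and 2 fell in each of the 3 comparisons. That is 36.4% called, near or below the 31.5%, 44.3% and 41.6% of all genes called in either direction. Coq2, of ubiquinone synthesis, changed by -0.72 ± 0.15, -1.39 ± 0.15 and -1.32 ± 0.15. Rabggtb changed by -0.54 ± 0.11 with siRpl14, Fntb by 0.65 ± 0.12 with siRpl11, and Fnta by 0.52 ± 0.09 with both. Of 6 genes of sterol-regulated degradation at the endoplasmic reticulum, Aup1 rose with both siRNAs, by 0.79 ± 0.24, and none was called with siRpl14 or siRpl11 alone. The share with both siRNAs, 16.7% of the 6, is near the 16.6% of all genes called higher.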

How the data were processed

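RNA of E14 mouse embryonic stem cells was sequenced from stranded mRNA libraries, per the labels' protocols. The deposited values are FPKM that the authors gave for 24819 genes in 2 tables; STAR, Cuffnorm and the build mm9 come from the submitters' processing notes. Tool versions, the annotation, the use of strand in counting and the scaling between libraries were not given in the sources used here. Separate normalization of the tables is possible, so tests stayed within a table. Sets 1 and 2 are told apart by title style alone.

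Tests (two-sided) used limma 3.58.1 (R 4.3.3, statmod 1.5.0) with trended, robust empirical Bayes on log2(FPKM + 1), once for set 1 and once for set 3. A gene entered a fit when 2 or more of its libraries reached 1 FPKM. Benjamini-Hochberg adjustment ran over all genes entered, with 0.05 as the threshold. This scale understates changes of low genes. From set 3 the lone siRpl11 and siRpl14+siRpl11 libraries were described and not fitted, as was all of set 2. A fit that leaves out 1 library assumes that the remaining one of its group varies like the other groups. Shared sequence was counted in 50-base stretches of GENCODE transcripts.

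The genes and lists were chosen with earlier results of these data known. Values in every library are given for genes named in the plan, which include those called against the sign of their arm and others from an interaction. The remaining genes are given by fold changes, counts and ranges, and other lists by counts and the 2 called genes that changed most. Alternatives were other pseudocounts, filters and scalings, plain empirical Bayes, a replicate block, other library sets and each library left out.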

Additional observations from a re-analysis of the deposited data

Results flagged for a closer look

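For 7 of the 33 genes in set 1, the siRpl14 change with siRpl11 present differed from that without it by limma's interaction term. The difference was 0.91 for Srebf2, 1.70 for Insig1, 0.78 for Pmvk, 0.80 for Lss, 0.82 for Cyp51, 1.42 for Msmo1 and 1.60 for Scd1 on the log2 scale, each positive because the change in the combined knockdown was smaller than the sum of the single changes. None of the 7 calls held in every fit with 1 library left out.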

How the results depend on the processing

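No called gene reversed direction under any alternative: of the values of single genes under an alternative, 1036 kept their side of the threshold, 231 lost it and 34 gained it. The interaction count of set 1, 7 genes, was 1 with no filter, 2 among genes with a mean of at least 5 FPKM and 0 with the replicate block. The share of all genes called higher by the interaction was 1.83% in the main fit. It was 0.655%, 0.572% and 0.0165% in those 3 settings. With 1 library left out the interaction count also moved, as did the share called over all genes in each comparison named below. The counts for siRpl14, siRpl11 and both siRNAs in set 1 ranged over 6 to 21, 13 to 26 and 7 to 24 with 1 library left out. In set 3 the siRpl14 count was 2 with a pseudocount of 5, 2 among genes with a mean of at least 5 FPKM, 0 with plain empirical Bayes and 0 with any library left out; the siRpl14+siDux count was 1 with plain empirical Bayes and 0 to 2 with 1 library left out. The cholesterol minus fatty acid median for siRpl14 in set 1 was 0.22 with sets 1 and 2 fitted together, and with 1 library left out ranged over 0.045 to 0.25 for siRpl14, 0.0061 to 0.38 for siRpl11 and 0.19 to 0.43 for both. Median-ratio rescaling moved the median of all genes with siRpl11 from -0.11 to 0.036 and left 18 of the 33 genes lower and 2 higher. The cause of these shifts was not tested.

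Replicate numbers were not taken to pair the libraries: in set 1 the residuals of same-numbered libraries correlated at 0.18 to 0.50 among siNT, siRpl14 and siRpl11 and at -0.50 to -0.24 with siRpl14+siRpl11, and in set 3 at 0.0061 to 0.039. With 2 libraries per group, the residuals of replicate 2 mirror those of replicate 1. Replicate 2 of siRpl14+siRpl11 thus deviated together with replicate 1 of the other groups. A block by replicate number does not account for that shared deviation. With the replicate block the set 1 counts were 18, 23 and 20 for siRpl14, siRpl11 and both, 1 between both and siRpl14, and in set 3 they were 1 for siRpl14 and 3 for siRpl14+siDux. In the same order, 10.9%, 25.2%, 21.9% and 4.16% of all genes were called lower in set 1, and 0.129% and 0.387% in set 3. The shares called higher were 15.5%, 14%, 14.8% and 0.289% in set 1, and 0.485% and 0.811% in set 3. The calls lost with the block were the 7 interactions, Acaca and Fads2 with siRpl11, and Acaca, Fads2, Tm7sf2 and Sc5d with both siRNAs; Msmo1 with siRpl14+siDux in set 3 was gained. Absolute depth is unknown, and 10 of the 33 genes are listed at 0 in at least 1 library of set 3.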
